A study of Mus musculus with 47 samples.

Results

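The genes described here run the cell cycle: 43 genes, of which 16 serve DNA replication in S phase and 27 serve the G2 phase and mitosis. They were taken by name from a list of cell cycle genes, and 38 of the 43 were analysed here (15 S phase and 23 mitosis genes) among 18138 entries of the beadchip files. *Mki67*, *Aurkb*, *Gins1*, *Kif20a* and *Racgap1* were not analysed here.

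Male C57BL/6J mice, 6 weeks of age, breathed air or GMA-SS at 40 mg/m3 for 3 hr/d on 10 d, GMA-SS being fume from gas metal arc welding with a stainless steel wire, with tissue taken 4 hr or 28 d after exposure ended. RNA of whole lung, whole blood cells and aorta was labeled and bound to beadchips, 1 array per mouse and tissue. Every group held 4 arrays but that of GMA-SS aorta at 4 hr, which held 3. Blood and aorta arrays share mouse numbers and lung arrays carry other ones. Each beadchip held 1 tissue at 1 time, with air arrays in the first positions, and exposure and position therefore cannot be told apart. Air arrays at 28 d and at 4 hr also differ in the age of the mice and in the beadchip.

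A dividing cell copies its DNA once in S phase and then separates the copies in mitosis. Before S phase, Cdt1 and Cdc6 load the ring of Mcm2 to Mcm7 proteins onto DNA, where it later unwinds the helix. Pcna then clamps the polymerase to its template, while Rrm1, Rrm2, Tyms and Tk1 supply the nucleotides. In G2 and mitosis, cyclin B1 (*Ccnb1*) with its kinase starts division, Plk1 and Aurka build the spindle, kinesins (Kif11, Kif22, Kif2c) move chromosomes along it and Cdc20 triggers their separation. Most of these RNAs are scarce in resting tissue, and their levels follow the share of cycling cells as well as the phase those cells are in. E2F factors switch on many S phase genes, and many mitosis genes are switched on later through CCAAT boxes and the cell cycle homology region.

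The 2 gene groups differ in these promoter motifs. Promoters of 300 bases (250 before the start of transcription and 50 after it, RefSeq, GRCm38.p6) were at hand for 14 of the 15 S phase genes (16 promoters) and 20 of the 23 mitosis genes (21 promoters). Searched on both strands were CCAAT, the cell cycle homology region (TTTGAA or TTTCGAA) and an E2F pattern (TTTNNCGC with G or C at each N). The homology region was present in 16 of 21 mitosis promoters (76.2%), in 2 of 16 S phase promoters (12.5%) and in 18.5% of all 32851 promoters of the table. The E2F pattern was present in 7 of 16 S phase promoters (43.8%) and in 0 of 21 mitosis promoters, against 2.26% of all promoters. CCAAT was present in 17 of 21 mitosis promoters (81.0%) and 11 of 16 S phase promoters (68.8%), against 37.4% of all. CCAAT and the homology region stood together in 14 of 21 mitosis promoters (66.7%) and in 7.23% of all promoters. Of the 37 windows, 30 began within 100 bases of the annotated 5′ end of the gene. Among those the homology region was present in 13 of 18 mitosis and 1 of 12 S phase promoters (19.5% of all such promoters), and the E2F pattern in 0 of 18 and 4 of 12 (2.17%). A match is a description of these letters in this window and no evidence of binding.

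The promoters below are those of the 3 mitosis and the 3 S phase genes with the lowest p in lung at 4 hr among genes with a single promoter in the table that begins within 100 bases of the annotated 5′ end. They show how differently genes that moved together are equipped. They are written 5′ to 3′ along the gene, in lower case, with matches to the 3 motifs in capitals.
*Top2a* (chr11:99024140-99024439, minus strand): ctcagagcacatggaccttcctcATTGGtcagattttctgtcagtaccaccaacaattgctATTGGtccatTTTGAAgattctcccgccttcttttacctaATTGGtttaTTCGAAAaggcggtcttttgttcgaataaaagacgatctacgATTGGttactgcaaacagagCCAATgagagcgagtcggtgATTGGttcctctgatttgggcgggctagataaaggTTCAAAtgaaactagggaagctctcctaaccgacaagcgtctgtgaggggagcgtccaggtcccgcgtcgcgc
*Birc5* (chr11:117848987-117849286, plus strand): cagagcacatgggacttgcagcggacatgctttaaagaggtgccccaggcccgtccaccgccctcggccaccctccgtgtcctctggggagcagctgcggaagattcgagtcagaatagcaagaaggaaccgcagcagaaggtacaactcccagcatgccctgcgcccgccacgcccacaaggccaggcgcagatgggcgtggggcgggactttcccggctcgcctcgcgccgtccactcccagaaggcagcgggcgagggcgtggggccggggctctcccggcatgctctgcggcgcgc
*Ccnb1* (chr13:100786437-100786736, minus strand): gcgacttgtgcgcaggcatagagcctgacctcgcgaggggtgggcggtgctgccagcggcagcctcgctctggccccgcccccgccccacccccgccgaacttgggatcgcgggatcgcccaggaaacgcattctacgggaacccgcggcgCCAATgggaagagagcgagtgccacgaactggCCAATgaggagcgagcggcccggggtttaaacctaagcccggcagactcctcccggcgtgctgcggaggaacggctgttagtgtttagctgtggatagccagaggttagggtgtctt
*Mcm5* (chr8:75109259-75109558, plus strand): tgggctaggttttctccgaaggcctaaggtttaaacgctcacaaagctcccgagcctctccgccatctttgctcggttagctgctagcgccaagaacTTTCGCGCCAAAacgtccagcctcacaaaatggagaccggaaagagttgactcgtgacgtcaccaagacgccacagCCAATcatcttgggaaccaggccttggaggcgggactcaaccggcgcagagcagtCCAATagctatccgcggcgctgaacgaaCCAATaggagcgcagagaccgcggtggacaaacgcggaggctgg
*Rrm2* (chr12:24708004-24708303, plus strand): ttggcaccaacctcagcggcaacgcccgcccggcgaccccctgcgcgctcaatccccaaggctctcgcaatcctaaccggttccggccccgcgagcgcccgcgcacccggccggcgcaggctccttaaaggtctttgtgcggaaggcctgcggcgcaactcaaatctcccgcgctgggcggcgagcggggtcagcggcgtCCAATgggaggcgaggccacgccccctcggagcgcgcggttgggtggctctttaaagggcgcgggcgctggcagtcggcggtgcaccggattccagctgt
*Mcm2* (chr6:88898731-88899030, minus strand): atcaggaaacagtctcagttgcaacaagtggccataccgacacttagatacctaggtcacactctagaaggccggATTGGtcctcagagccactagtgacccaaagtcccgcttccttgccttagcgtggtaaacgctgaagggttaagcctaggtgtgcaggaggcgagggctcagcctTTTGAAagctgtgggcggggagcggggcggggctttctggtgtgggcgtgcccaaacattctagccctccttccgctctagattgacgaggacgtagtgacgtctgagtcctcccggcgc
The *Top2a* promoter holds 6 CCAAT boxes and 3 homology regions, *Birc5* holds none of the 3 motifs, and *Ccnb1* holds 2 CCAAT boxes and no homology region. The *Mcm5* promoter holds 3 CCAAT boxes and 2 overlapping matches to the E2F pattern, *Rrm2* holds 1 CCAAT box, and *Mcm2* holds 1 CCAAT box and 1 homology region.

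Signals are on a log2 scale after background correction and normalization within a tissue, where a difference of 1 is a doubling. A gene is above background on an array where its detection p is under 0.05. It was tested where this held on at least 3 arrays of the tissue. For 79.65% to 82.84% of the entries of an array, this p fell on the steps that a share of negative controls can take. For the rest it did not, and a bright signal there can still fail the cut. Cell cycle genes were measured best in lung and blood: 30 of the 38 were tested in lung (12 S phase, 18 mitosis), 32 in blood (12 and 20) and 16 in aorta (8 and 8). On a single array 24 to 30 of them were above background in lung. Blood arrays showed 26 to 33 and aorta arrays 11 to 18. In lung it was 24 to 26 on air arrays and 28 to 30 on GMA-SS arrays at 4 hr. The tissues bore markers of their cells, with 10 of 10 entries for alveolar type II cells above background on every lung array, 13 of 17 for erythroid precursors on every blood array and 7 of 8 for smooth muscle on every aorta array. Smooth muscle markers do not set aorta apart, since 7 of 8 were above background on every lung array too. Every aorta array also had 9 of 10 fat cell and 8 of 9 cardiac muscle markers above background. Over all entries, a lung array had 10239 to 10872 above background, a blood array 8090 to 8406 and an aorta array 8678 to 9646. In samples of whole tissue, a change in the number of cells of a type and a change in RNA per cell cannot be told apart.

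In lung at 4 hr after GMA-SS inhalation, genes of both phases rose together, and the mitosis genes had the larger differences. GMA-SS arrays were compared with air arrays in a limma fit, with p-values adjusted over 11156 genes by the method of Benjamini and Hochberg. Of the 30 genes tested, 25 were called higher at an adjusted p under 0.05 and 0 lower (limma; 27 were higher at an unadjusted p under 0.05, against 13.7% of all genes), where 9.56% of all genes were called higher and 9.89% lower. They were 17 of 18 mitosis genes, with a median log2 difference of 1.05, and 8 of 12 S phase genes, with a median of 0.54, where the median of all genes was -0.04. All 30 differences were above 0, as were 42.6% of all genes. For 24 of the 30 every GMA-SS array lay above every air array, which held for 12% of all genes. *Nusap1*, *Tpx2* and *Cdca8* passed the filter only through GMA-SS arrays (0, 1 and 2 of 8 air arrays above background), so they had to differ, and without them 22 of 27 genes were called, 14 of 15 mitosis genes among them (median 1.07). The medians of mitosis and S phase genes were 0.59 and 0.34 with no background correction, and 0.33 and 0.12 with the authors' normalized values.

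**Figure D1:**
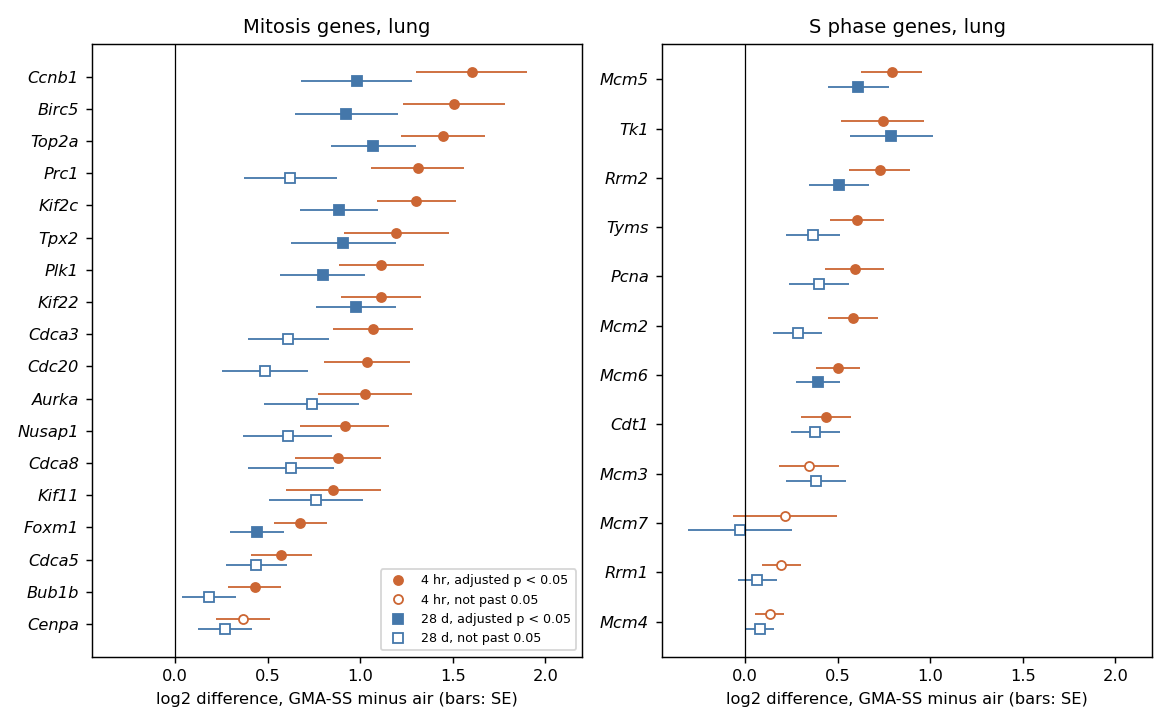
Log2 difference of GMA-SS minus air in lung at 4 hr (circles) and 28 d (squares) for 18 mitosis and 12 S phase genes, with bars of 1 SE; filled symbols are past an adjusted p of 0.05. At 4 hr 17 mitosis and 8 S phase genes are filled, at 28 d 8 and 4, and the 28 d symbol lies to the left of the 4 hr symbol for all 18 mitosis genes.

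Genes that enter and time mitosis were 1.60- to 3.04-fold higher. *Ccnb1*, the cyclin that starts mitosis, had log2 signals of 6.66, 6.62, 7.08 and 6.96 on the air arrays and 8.13, 9.09, 8.19 and 8.32 on the GMA-SS arrays. Every GMA-SS array stood more than a unit above the highest air array, and *Ccnb1* was 3.04-fold higher (log2 difference 1.60, SE 0.30, limma adjusted p = 0.0012). *Plk1*, a kinase that matures the spindle poles, had 7.69, 7.85, 7.77 and 7.97 with air and 8.67, 9.54, 8.81 and 8.72 with GMA-SS, 2.17-fold higher (log2 difference 1.11, SE 0.23, limma adjusted p = 0.00244). *Cdc20*, which activates the ligase that destroys cyclin B at anaphase, had 7.52, 7.75, 7.86 and 7.67 with air and 8.66, 9.31, 8.51 and 8.46 with GMA-SS, 2.05-fold higher (limma adjusted p = 0.00448). The groups did not overlap for any of these 3 genes, and the second GMA-SS array was the highest for each. *Foxm1*, the transcription factor of many mitosis genes, moved less, from 6.83, 6.50, 6.85 and 6.83 to 7.30, 7.73, 7.48 and 7.21, or 1.60-fold (limma adjusted p = 0.00311). *Cdca3*, which helps to trigger entry into mitosis, had 7.40, 7.53, 7.74 and 7.47 with air and 8.67, 9.11, 8.37 and 8.26 with GMA-SS, 2.10-fold higher (limma adjusted p = 0.00225).

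Genes of the spindle and its motors moved by similar amounts. *Kif2c*, a kinesin that takes microtubules apart at the kinetochore, had 6.32, 6.16, 6.02 and 6.29 with air and 7.22, 8.04, 7.62 and 7.13 with GMA-SS, 2.47-fold higher (SE 0.21 on the log2 scale, limma adjusted p = 0.000349). *Kif22*, which pushes chromosome arms outward, had 7.39, 7.24, 7.72 and 7.55 with air and 8.45, 9.12, 8.44 and 8.35 with GMA-SS, 2.16-fold higher (limma adjusted p = 0.00147). *Prc1*, which bundles the central spindle, was the brightest of the genes that more than doubled, with 9.60, 9.60, 9.76 and 9.64 against 10.86, 11.68, 10.66 and 10.65 (2.48-fold, limma adjusted p = 0.0014). The 3 genes separated the groups completely. *Aurka*, the kinase of the spindle poles, had 6.95, 6.78, 7.04 and 6.75 with air and 7.80, 8.56, 7.75 and 7.52 with GMA-SS, 2.04-fold higher (limma adjusted p = 0.00892). *Kif11*, the motor that pushes the poles apart, was above background on 1 of 4 air arrays and 4 of 4 GMA-SS arrays, with 6.41, 5.64, 5.42 and 5.96 against 6.88, 7.21, 6.29 and 6.48 (1.81-fold, limma adjusted p = 0.0256). Here the highest air array lay inside the range of the GMA-SS arrays.

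*Tpx2*, *Cdca8* and *Nusap1* were above background on no air array at 4 hr, so their folds are given as at least the value shown. Each fold was taken against the gene's own air signal wherever that exceeded the dimmest signal above background on the array. *Tpx2*, which activates Aurka on the spindle, had 5.98, 5.88, 6.13 and 5.66 with air and 6.64, 7.99, 6.97 and 6.84 with GMA-SS, at least 2.29-fold higher (limma adjusted p = 0.00624). *Cdca8*, a subunit of the complex that corrects chromosome attachment, had 6.04, 6.13, 5.93 and 5.73 against 6.67, 7.34, 6.72 and 6.62, at least 1.84-fold higher (limma adjusted p = 0.0129). *Nusap1*, a spindle protein that binds microtubules, had 7.09, 7.13, 7.0 and 6.95 with air against 7.79, 8.57, 7.77 and 7.69, at least 1.89-fold higher (limma adjusted p = 0.0123). *Nusap1* was above background on 1 of the 4 GMA-SS arrays. These folds lie at or close to the plain fitted ones, so with them the median of the 18 mitosis genes was again 1.05.

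Genes that handle chromosomes were spread more widely. *Top2a*, the topoisomerase that untangles sister chromatids, had the lowest adjusted p of the 30, with 6.98, 6.96, 7.25 and 7.26 with air and 8.57, 9.02, 8.35 and 8.30 with GMA-SS (2.72-fold, log2 difference 1.45, SE 0.23, limma adjusted p = 0.000267). *Birc5*, survivin, a partner of Cdca8, had 6.98, 6.68, 7.17 and 6.73 against 8.26, 9.06, 8.13 and 8.13 (2.84-fold, limma adjusted p = 0.00103). Its lowest GMA-SS arrays stood about a log2 unit above its highest air array. *Cdca5*, which protects the cohesion of sister chromatids, had 6.68, 6.46, 7.10 and 6.56 against 7.17, 7.47, 7.08 and 7.38 (1.49-fold, limma adjusted p = 0.0208), with 1 air array above the lowest GMA-SS array. *Bub1b*, of the checkpoint that holds anaphase back, had 7.21, 7.13, 7.01 and 7.07 against 7.65, 7.59, 7.56 and 7.34 (1.35-fold, limma adjusted p = 0.0446). *Cenpa*, the histone that marks centromeres, was the single mitosis gene not called, with 11.14, 11.19, 11.13 and 11.20 against 11.49, 12.02, 11.31 and 11.30 (log2 difference 0.37, SE 0.14, limma adjusted p = 0.089). All 4 of its GMA-SS arrays lay above its air arrays, and the second stood well above the other 3.

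Among the S phase genes, those of the helicase ring did not all move alike. *Mcm5* had 9.99, 9.91, 10.04 and 9.98 with air and 10.49, 11.30, 10.69 and 10.62 with GMA-SS, 1.73-fold higher (log2 difference 0.79, SE 0.17, limma adjusted p = 0.00258). *Mcm2* had 8.71, 8.53, 8.87 and 8.77 against 9.18, 9.63, 9.20 and 9.19 (log2 difference 0.58, SE 0.13, limma adjusted p = 0.00505). *Mcm6* had 9.65, 9.58, 9.63 and 9.68 against 9.99, 10.44, 10.13 and 9.98 (1.42-fold, limma adjusted p = 0.00654). The groups did not overlap for these 3 subunits. *Mcm3*, *Mcm7* and *Mcm4*, subunits of the same ring, were not called, with log2 differences of 0.35 (SE 0.16, limma adjusted p = 0.151), 0.22 (SE 0.28, limma adjusted p = 0.641) and 0.13 (SE 0.08, limma adjusted p = 0.255). *Mcm4* had a signal near 10.5 but was above background on 1 of 4 air arrays. *Cdt1*, which loads the ring, had 9.23, 9.29, 9.37 and 9.49 against 9.73, 10.16, 9.59 and 9.66 (1.35-fold, limma adjusted p = 0.0279).

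The nucleotide suppliers and the clamp moved by 1.15- to 1.68-fold. *Rrm2*, the regulated subunit of ribonucleotide reductase, had 6.65, 6.35, 6.28 and 6.35 with air and 7.01, 7.55, 6.95 and 7.04 with GMA-SS (1.66-fold, log2 difference 0.73, SE 0.16, limma adjusted p = 0.00442). *Rrm1*, its partner subunit, was not called (log2 difference 0.20, SE 0.10, limma adjusted p = 0.21). *Tk1*, thymidine kinase, had 6.30, 6.59, 6.81 and 6.53 against 7.14, 7.85, 6.98 and 7.24 (1.68-fold, limma adjusted p = 0.0263). Every GMA-SS array of *Tk1* lay above every air array. *Tyms*, thymidylate synthase, had 6.97, 7.04, 7.14 and 6.99 against 7.46, 7.89, 7.66 and 7.55 (1.52-fold, limma adjusted p = 0.00756). *Pcna* had 8.82, 9.02, 8.55 and 8.99 against 9.08, 9.55, 9.48 and 9.63 (1.51-fold, log2 difference 0.59, SE 0.16, limma adjusted p = 0.0145). *Pcna* was 1 of 3 genes whose highest GMA-SS array was not the second, which was the highest for 27 of the 30. When each of the 16 lung arrays was left out in turn, 18 to 26 genes were called, and 17 of the 25 were called in all 16 fits; *Bub1b*, *Cdca5*, *Cdca8*, *Cdt1*, *Kif11*, *Nusap1*, *Pcna* and *Tk1* were not.

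**Figure D2:**
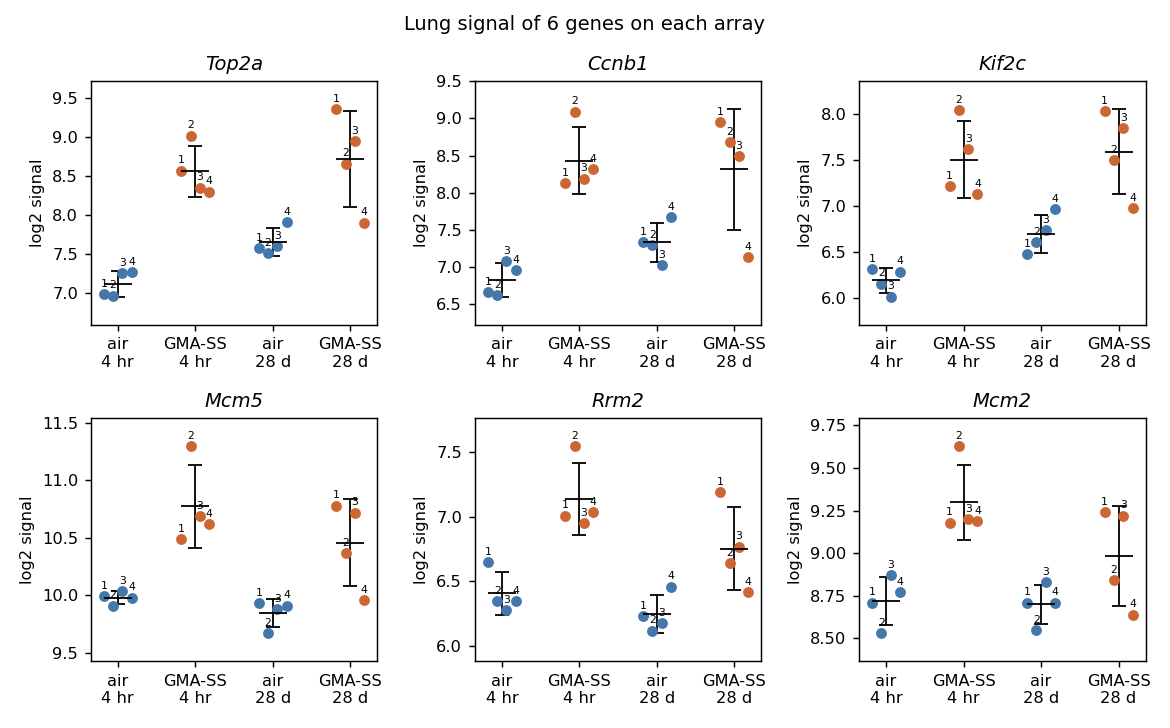
Log2 signal of 3 mitosis genes (top) and 3 S phase genes (bottom) on each lung array, with the replicate number beside each point and the mean and SD of the group as lines. At 4 hr all GMA-SS arrays lie above all air arrays, and at 28 d GMA-SS array 4 lies at the level of the air arrays.

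At 28 d after exposure 12 of the 30 genes were still called higher and 0 lower in lung (limma; 24 were higher at an unadjusted p under 0.05, against 11.9% of all genes), where 7.68% of all genes were called higher and 8.61% lower. They were 8 of 18 mitosis genes (median log2 difference 0.68) and 4 of 12 S phase genes (median 0.38), with a median of -0.04 over all genes. All 12 were among the 25 called at 4 hr. Without *Nusap1*, *Tpx2* and *Cdca8* 11 of 27 were called. Groups did not overlap for 4 of the 30 genes, against 6.94% of all genes with GMA-SS above air.

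The 28 d effects rested on 3 of the 4 GMA-SS arrays. *Top2a* had log2 signals of 7.57, 7.51, 7.60 and 7.91 with air and 9.36, 8.66, 8.95 and 7.90 with GMA-SS (2.10-fold, log2 difference 1.07, SE 0.23, limma adjusted p = 0.0042). *Ccnb1* had 7.34, 7.30, 7.03 and 7.67 against 8.95, 8.68, 8.49 and 7.13 (1.97-fold, log2 difference 0.98, SE 0.30, limma adjusted p = 0.0337). *Birc5* had 7.71, 7.10, 7.31 and 7.32 against 9.04, 8.20, 8.54 and 7.35 (1.90-fold, limma adjusted p = 0.0301). In all 3 genes the first 3 GMA-SS arrays stood above every air array and array 4 stood among them. Among the called mitosis genes the kinesins *Kif22* and *Kif2c* were the exceptions, as their GMA-SS array 4 was also above every air array. *Kif22* had 7.73, 7.04, 7.60 and 7.79 against 9.03, 8.35, 8.69 and 8.0 (1.97-fold, limma adjusted p = 0.00527). *Kif2c* had 6.48, 6.61, 6.74 and 6.97 against 8.03, 7.50, 7.85 and 6.98 (1.85-fold, limma adjusted p = 0.00876), a gap of 0.01 between its lowest GMA-SS and highest air array.

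*Plk1* had 7.99, 7.66, 7.95 and 7.92 with air and 9.22, 8.77, 8.91 and 7.83 with GMA-SS at 28 d (1.74-fold, limma adjusted p = 0.0255). *Tpx2* had 6.06, 5.84, 5.59 and 6.55 against 7.29, 7.25, 6.96 and 6.17 (1.88-fold, limma adjusted p = 0.0362), and was above background on 1 of 4 air arrays. *Foxm1* had 6.86, 6.58, 6.75 and 6.76 against 7.52, 7.28, 7.09 and 6.84 (1.36-fold, limma adjusted p = 0.0446). GMA-SS array 4 was the lowest in each of them. Of the S phase genes, *Mcm5* had 9.93, 9.67, 9.88 and 9.91 against 10.78, 10.37, 10.72 and 9.96 (1.53-fold, log2 difference 0.61, SE 0.17, limma adjusted p = 0.0176), and its groups did not overlap. *Tk1* had 6.55, 6.85, 6.62 and 7.01 against 8.13, 7.54, 7.67 and 6.86 (1.73-fold, limma adjusted p = 0.0229). *Mcm6* had 9.45, 9.77, 9.37 and 9.65 against 10.15, 9.98, 10.07 and 9.62 (1.31-fold, limma adjusted p = 0.0326). Array 4 fell inside the air range for *Tk1* and *Mcm6*. *Rrm2* had 6.23, 6.12, 6.18 and 6.46 against 7.19, 6.64, 6.77 and 6.42 (1.42-fold, limma adjusted p = 0.0426). *Mcm2* and *Pcna*, called at 4 hr, had log2 differences of 0.28 (SE 0.13, limma adjusted p = 0.166) and 0.40 (SE 0.16, limma adjusted p = 0.101). *Pcna* ran against the others within the group, with GMA-SS signals of 8.81, 8.70, 8.54 and 8.94, array 4 being its highest.

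GMA-SS array 4 was the lowest of its group for 28 of the 30 genes and no higher than the highest air array for 25. Over the 18 mitosis genes the mean log2 signal, set against the mean of the air arrays, was 1.18, 0.75, 0.81 and 0.00 on the 4 GMA-SS arrays and -0.02, -0.12, -0.05 and 0.18 on the air arrays. Over the 12 S phase genes it was 0.62, 0.27, 0.44 and 0.08 on the GMA-SS arrays. Without array 4, 24 genes were called at 28 d, 17 of 18 mitosis genes (median 0.93) and 7 of 12 S phase genes (median 0.48). Without GMA-SS array 1 or 3, 3 genes were called. Without air array 1, 2 or 3 the counts were 6, 6 and 5. *Kif22*, *Kif2c* and *Top2a* were called in all 16 such fits. At 4 hr the same mean over the mitosis genes was 0.91, 1.55, 0.86 and 0.78 on the GMA-SS arrays, with all 18 genes above their air mean on every one of them. The S phase mean at 4 hr was 0.32, 0.81, 0.42 and 0.41.

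**Figure D3:**
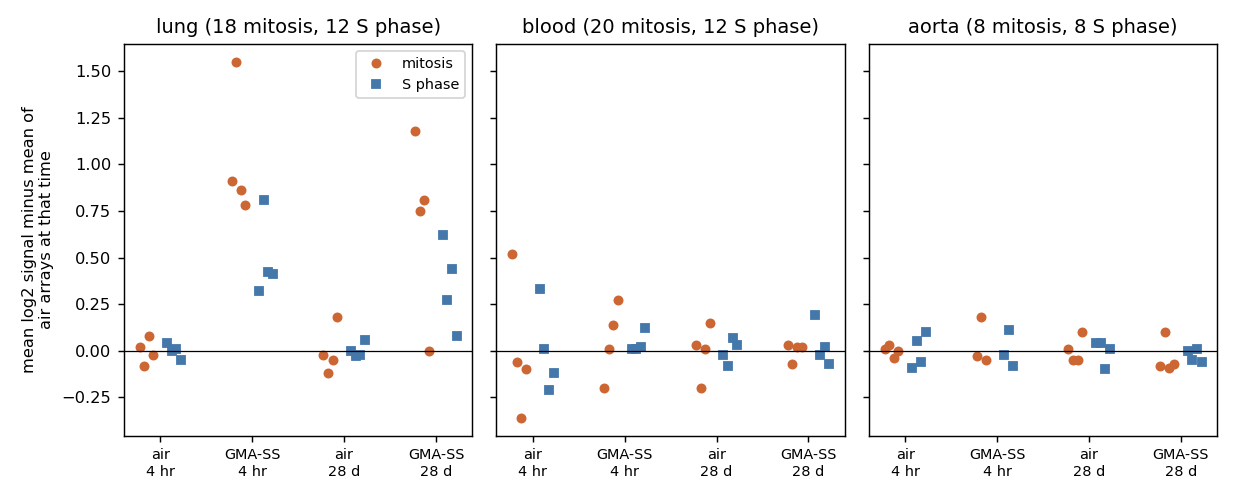
Mean log2 signal of the mitosis genes (circles) and S phase genes (squares) on each array, minus the mean of the air arrays of the same tissue and time, in lung, blood and aorta. The mitosis means of the 4 lung GMA-SS arrays run from 0.78 to 1.55 at 4 hr and from 0.00 to 1.18 at 28 d, while those of blood and aorta lie on both sides of 0 with overlap between the exposure groups.

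The effect at 28 d was smaller than at 4 hr for 18 of 18 mitosis genes and 10 of 12 S phase genes. These genes share the same arrays, so the counts are not independent. With each array left out in turn, the mitosis median ran from 0.90 to 1.17 at 4 hr and from 0.58 to 0.93 at 28 d. These ranges overlapped, the 0.93 being the median without GMA-SS array 4. Over all genes, the signed difference of the effects, 28 d minus 4 hr, was below 0 for 52%. Yet 0 of the 30 differed between the times at an adjusted p under 0.05 (limma). At an unadjusted p under 0.05 it was also 0, against 7.31% of all genes. Of all genes, 0.269% were called with a difference above 0 and 0.296% with a difference below 0. The median difference between the effects, 28 d minus 4 hr, was -0.30 for mitosis genes and -0.16 for S phase genes, and -0.01 for all genes. *Prc1* had the widest one, with a log2 effect lower by 0.69 at 28 d (SE 0.36, limma adjusted p = 0.747), followed by *Ccnb1* (-0.62), *Birc5* (-0.58, SE 0.39, limma adjusted p = 0.895) and *Cdc20* (-0.55, SE 0.33, limma adjusted p = 0.849). Of the S phase genes *Mcm2* had -0.30 (SE 0.19, limma adjusted p = 0.883) and *Pcna* -0.19 (SE 0.23, limma adjusted p = 0.967). The air arrays themselves were higher at 28 d than at 4 hr for 17 of 18 mitosis genes (52.3% of all genes were), with a median of 0.26 and none called (limma; 3 at an unadjusted p under 0.05, against 19.4% of all genes). *Top2a*, for instance, was 0.54 higher on air arrays at 28 d (SE 0.23, limma adjusted p = 0.0956) and *Aurka* 0.69 higher (SE 0.26, limma adjusted p = 0.0573).

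Another 8 genes were not tested in lung because they were above background on fewer than 3 arrays. *Ccna2*, *Ccnb2*, *Bub1*, *Cenpe*, *Ube2c* and the checkpoint kinase *Chek1* lay close to background in all groups, with mean log2 signals between 4.89 and 5.54 at either time, and their level in lung was not measurable at this sensitivity. *Uhrf1*, which carries DNA methylation over to the new strand in S phase, was above background on 1 of the 16 lung arrays, with a detection p from 0.0398 to 0.296, although its mean signal was brighter than 65.1% of all entries. *Cdc6*, which loads the helicase with Cdt1, was above background on 0 of the 16. No difference is given for either gene.

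The other genes of these pathways, taken from lists of their own, repeated the order. Of 26 other mitosis genes tested in lung at 4 hr, 17 were called higher and 0 lower (median 0.73), against 9.56% and 9.89% of all genes. The kinase of cyclin B, *Cdk1*, was 1.19 higher on the log2 scale (SE 0.25, limma adjusted p = 0.00251), the mitotic kinase *Pbk* 1.74 (SE 0.29, limma adjusted p = 0.000442), and *Cep55*, which directs the final cut between daughter cells, at least 3.20-fold higher (limma adjusted p = 2.63e-05). *Cep55* was above background on no air array at either time. It passed the filter only through GMA-SS arrays, so it had to differ and its call does not bear on the order. The counts and medians given here include it at both times, and none without such genes is given for these lists. Of 31 other replication genes, 8 were called higher and 0 lower (median 0.18), among them *Mcm10* (1.15, SE 0.21, limma adjusted p = 0.00107), *Fen1*, which trims the lagging strand (0.55, SE 0.10, limma adjusted p = 0.00125), and *Dbf4*, which activates the kinase that fires origins (0.46, SE 0.08, limma adjusted p = 0.000943). At 28 d the counts were 7 of 26 mitosis genes (median 0.43) and 6 of 31 replication genes (median 0.05), all higher, against 7.68% of all genes, with *Cep55* at least 2.02-fold higher (limma adjusted p = 0.00345) and *Mcm10* at 0.93 (SE 0.21, limma adjusted p = 0.00662).

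By their median at 4 hr, genes that act before S phase moved less than the mitosis genes and the S phase genes described first. Their median was near that of the other replication genes, and the share called higher was no smaller. Of 17 G1 cyclins, kinases and E2F factors, 6 were called higher at 4 hr and 1 at 28 d, and 0 lower at either time (median 0.16 at 4 hr), where 9.56% and 7.68% of all genes were called higher. The count at 28 d is below that background. *E2f3* was 0.65 higher at 4 hr (SE 0.15, limma adjusted p = 0.00612), *E2f1* 0.40 (SE 0.08, limma adjusted p = 0.00302) and cyclin D1, *Ccnd1*, 0.28 (SE 0.06, limma adjusted p = 0.00487). *Ccne2*, the cyclin of S phase entry, was the gene called at 28 d. At 28 d it was above background on no air array and at least 1.55-fold higher (limma adjusted p = 0.0422). The 3 arrays that passed the detection cut at that time all came from exposed mice and met the filter by themselves. The filter thus favoured a difference for *Ccne2*. The G1 count at 28 d rests on this gene alone and carries little weight. Of 18 cell cycle inhibitors, 4 were called higher and 2 lower at 4 hr, and 2 higher and 1 lower at 28 d, against 9.56% higher and 9.89% lower over all genes at 4 hr and 7.68% and 8.61% at 28 d. Apart from those called higher at 4 hr, these counts are near the background. *Cdkn1a* (p21) was 0.39 higher at 4 hr (SE 0.10, limma adjusted p = 0.012), while *Cdkn1c* (p57) fell by 0.45 (SE 0.11, limma adjusted p = 0.00698) and *Tob1* by 0.28 (SE 0.07, limma adjusted p = 0.0108). *Cdkn2a* was 0.69 higher at 28 d (SE 0.13, limma adjusted p = 0.00191) and *Btg1* 0.33 (SE 0.06, limma adjusted p = 0.00211).

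Markers of T cells were also higher in lung after GMA-SS. Of 11 T cell markers tested, 8 were called higher at 4 hr (median log2 difference 0.83) and 9 at 28 d (median 0.97), against 9.56% and 7.68% of all genes, and *Cd4* and *Cd8a* were above background on no lung array. Their summed linear signal was 3.70e+03, 3.36e+03, 3.37e+03 and 3.48e+03 on the air arrays and 5.59e+03, 8.75e+03, 5.53e+03 and 4.84e+03 on the GMA-SS arrays at 4 hr. At 28 d it was 3.93e+03, 3.75e+03, 3.71e+03 and 3.58e+03 with air and 8.32e+03, 7.17e+03, 8.11e+03 and 4.41e+03 with GMA-SS. The array with the highest mitosis mean at 4 hr (array 2) had the highest T cell sum, and array 4 at 28 d had the lowest of its group in both. On the air arrays the order was not shared, since air array 4 at 28 d had the highest mitosis mean of its group (0.18) and the lowest T cell sum. The part of T cells in the result was not tested. Markers of natural killer cells had smaller medians (0.33 and 0.46 at the 2 times, 0 and 1 of 6 called higher), as did those of B cells at 28 d (0.41, 1 of 7 called higher). At 4 hr, 6 of 8 platelet markers (median -0.72), 4 of 6 fat cell markers (-0.82), 4 of 8 cardiac muscle markers (-0.58) and 4 of 7 smooth muscle markers (-0.40) were called lower, as were 4 of 10 tested markers of erythroid precursors (-0.32), which divide, against 9.89% of all genes. Of 8 neutrophil markers 1 was called higher and 2 lower at 4 hr (median -0.28). Their summed linear signal at 4 hr was 5.44e+04 to 7.1e+04 with GMA-SS against 1.49e+04 to 2e+04 with air. At 28 d it was 5.2e+04 to 8.31e+04 against 1.72e+04 to 2.07e+04. The neutrophil gene called higher at 4 hr was *Lcn2*, 6.43-fold (limma adjusted p = 7.93e-10), from a mean log2 signal of 12.94 to 15.63. The rise of the sum at 4 hr came largely from this 1 gene, while *Mmp9* (-0.60) and *S100a9* (-0.77) were called lower. Of 6 markers of monocytes and dendritic cells 1 was called higher and 1 lower at 4 hr, with a sum of 2.02e+04 to 2.23e+04 against 1.66e+04 to 1.81e+04. The part of these cell types was not tested.

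**Figure D4:**
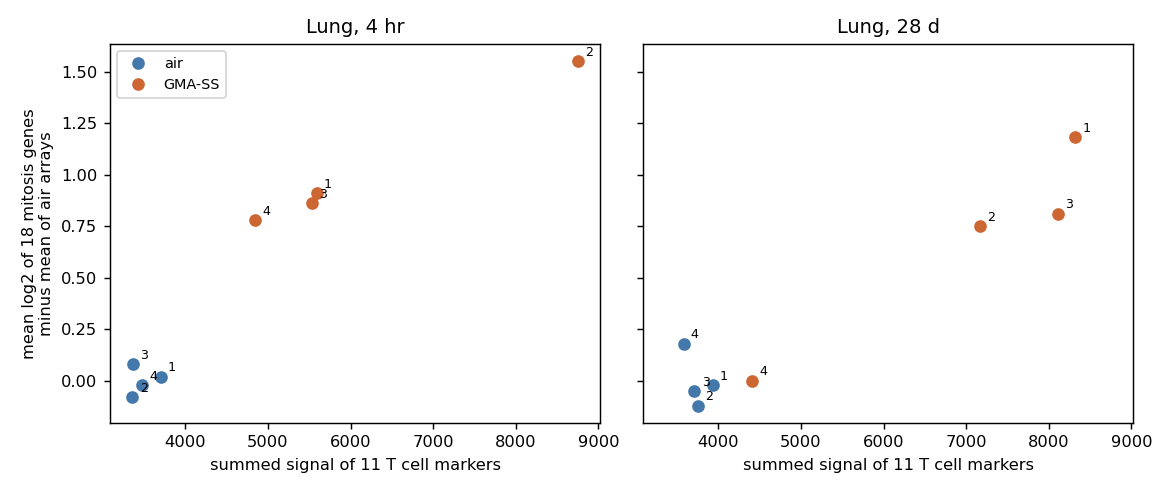
Mean log2 signal of 18 mitosis genes minus the mean of the air arrays (vertical) against the summed linear signal of 11 T cell markers (horizontal) on each lung array at 4 hr and 28 d, with replicate numbers. GMA-SS array 2 at 4 hr is highest on both axes (1.55 and 8.75e+03), and GMA-SS array 4 at 28 d lies beside the air arrays (0.00 and 4.41e+03).

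In blood, GMA-SS inhalation moved none of the 32 genes past the threshold at either time (limma adjusted p of 0.961 or more at 4 hr and 0.621 or more at 28 d; 1 gene at 4 hr and 4 at 28 d at an unadjusted p under 0.05, against 5.04% and 7.9% of all genes), where 0.0108% of all genes were called higher at 4 hr and 0% at 28 d. Medians at 4 hr were 0.07 for 20 mitosis genes and 0.03 for 12 S phase genes, and at 28 d -0.01 and 0.02. *Top2a* had 7.75, 7.13, 6.69 and 6.83 with air and 6.66, 7.16, 7.49 and 7.59 with GMA-SS at 4 hr (log2 difference 0.12, SE 0.22, limma adjusted p = 0.998). The ranges overlapped almost fully. *Pcna* had the lowest p at 4 hr, with 6.58, 6.93, 6.29 and 6.45 against 6.65, 6.84, 7.06 and 7.12 (0.36, SE 0.14, limma adjusted p = 0.961), and at 28 d 6.91, 6.83, 6.90 and 6.90 against 7.14, 7.06, 7.50 and 7.15 (0.33, SE 0.14, limma adjusted p = 0.623). *Pcna* at 28 d was the 1 gene of the 32 whose groups did not overlap with GMA-SS above, against 1.37% of all genes. *Mcm2* differed by 0.03 (SE 0.11) at 4 hr and 0.01 (SE 0.11) at 28 d. The others with the lowest p at 28 d were *Cdt1* (0.30, SE 0.12, limma adjusted p = 0.621), *Tk1* (-0.28, SE 0.11, limma adjusted p = 0.621) and *Ccnb1* (-0.45, SE 0.21, limma adjusted p = 0.623). Of the lists of other mitosis genes, other replication genes, G1 genes and inhibitors, 0 genes were called in blood at either time (limma). At an unadjusted p under 0.05 it was 2 at 4 hr and 5 at 28 d, where 5.04% and 7.9% of all genes passed. The lowest p at 4 hr was that of *Pttg1* (0.48, SE 0.10, limma adjusted p = 0.212), which had 0.28 at 28 d (limma adjusted p = 0.617). *Chaf1a* had the lowest at 28 d (0.53, SE 0.15, limma adjusted p = 0.56). Others were lower, as *E2f6* at 4 hr (-0.22, limma adjusted p = 0.971) and *Ccnd3* at 28 d (-0.30, limma adjusted p = 0.617).

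The 28 d air arrays of blood differed from those at 4 hr, with time, age and beadchip not to be told apart. Of 32 genes, 3 mitosis genes were called lower and the S phase gene *Cdt1* higher (limma; 11 lower and 2 higher at an unadjusted p under 0.05, against 15.4% and 17.2% of all genes), where 8.1% of all genes were called lower and 9.07% higher, so the count is near the background. By direction, 18 of 20 mitosis genes were below 0 (48.3% of all genes were), with a median of -0.42. These genes share the same arrays and can shift together with 1 of them, so the count is not of independent observations. *Ccnb1* had 6.76, 5.83, 5.44 and 6.24 at 4 hr and 5.66, 5.32, 4.92 and 5.33 at 28 d (1.70-fold lower, SE 0.21 on the log2 scale, limma adjusted p = 0.0197). *Kif2c* had 6.43, 5.47, 5.26 and 5.14 against 4.89, 4.77, 4.59 and 5.24 (1.63-fold lower, limma adjusted p = 0.0492), and was above background on 1 of 4 arrays at 28 d. Both genes had their highest value on the first air array at 4 hr. *Cdca5* had 6.13, 5.90, 5.93 and 5.92 against 5.85, 5.41, 5.49 and 5.45 (1.34-fold lower, limma adjusted p = 0.041), with no overlap. *Cdt1* went the other way, from 9.72, 9.53, 9.39 and 9.48 to 9.86, 9.90, 10.42 and 10.24 (1.49-fold higher, limma adjusted p = 0.00337), also with no overlap. Over the 20 mitosis genes the first air array at 4 hr stood 0.52 above its group mean and the third 0.36 below it. Without air array 1 at 4 hr or air array 3 at 28 d, 1 gene was called, and without air array 2 or GMA-SS array 2 at 28 d, 2 genes, and *Cdt1* was called in all 16 fits. T cell markers in blood were also lower on air arrays at 28 d (median -0.44, 7 of 12 called lower), with sums of 2.61e+04, 2.36e+04, 2.46e+04 and 2.34e+04 at 4 hr and 1.90e+04, 1.76e+04, 1.81e+04 and 1.71e+04 at 28 d. Other marker lists moved as well, in both directions. On the air arrays, sums of haematopoietic progenitor markers were 998 to 1.28e+03 at 4 hr and 579 to 843 at 28 d. Those of natural killer cells were 4.49e+03 to 5.41e+03 and 3.9e+03 to 4.24e+03. Sums of germinal centre and plasma cell markers were higher at 28 d (4.59e+03 to 5.31e+03, against 3.42e+03 to 4.04e+03). The part of any of these cells in the result was not tested.

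In lung the same comparison of air arrays called 1 gene lower and 1 higher of 30, where 12.4% of all genes were called lower and 12.9% higher. *Pcna* fell from 8.82, 9.02, 8.55 and 8.99 to 8.65, 8.39, 7.85 and 8.50 (log2 difference -0.49, SE 0.16, limma adjusted p = 0.0314), and *Tyms* rose from 6.97, 7.04, 7.14 and 6.99 to 7.62, 7.44, 7.52 and 7.31 (0.44, SE 0.15, limma adjusted p = 0.0366). The *Tyms* groups did not overlap and the *Pcna* groups did. Neither was called in all 16 fits that left out 1 array, in which 0 to 5 genes were called. No gene was called without air array 1, 2 or 4 at 4 hr or air array 2 or 3 at 28 d, 1 was called without air array 1 at 28 d, and 5 without GMA-SS array 4 at 28 d. *Mcm2* differed by -0.02 (SE 0.13, limma adjusted p = 0.931).

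**Figure D5:**
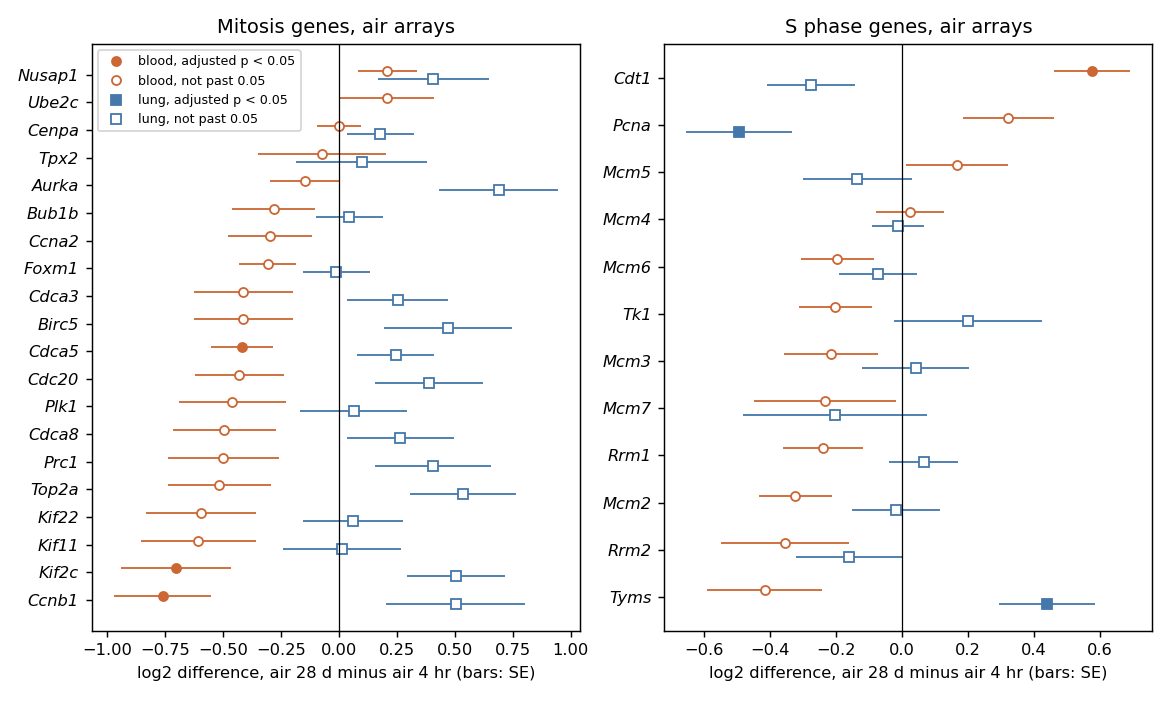
Log2 difference of air arrays at 28 d minus air arrays at 4 hr in blood (circles) and lung (squares), with bars of 1 SE and filled symbols past an adjusted p of 0.05. In blood 18 of 20 mitosis genes lie below 0, with *Ccnb1*, *Kif2c* and *Cdca5* filled, and in lung 17 of 18 lie above 0.

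In aorta few of these genes were above background, and 0 of the 16 tested were called at 4 hr or 28 d (limma; 2 and 0 at an unadjusted p under 0.05, against 3.85% and 6.83% of all genes), where 0% of all genes were called higher at either time. Medians at 4 hr were 0.05 for 8 mitosis genes and -0.01 for 8 S phase genes, and at 28 d -0.04 for both. Airway markers were uneven among the GMA-SS aorta arrays at 28 d. The summed signal of club and goblet cell markers reached 6.42e+04 there, with a group median of 420, against 441 to 929 with air. That of ciliated cell markers reached 1.69e+03, with a group median of 282. Whether airway tissue was present in an aorta sample was not tested. *Rrm2* at 4 hr had 4.99, 5.21, 5.02 and 5.13 with air and 4.97, 4.87 and 4.79 with GMA-SS (log2 difference -0.21, SE 0.09, limma adjusted p = 1.00). *Cdt1* had 5.34, 6.05, 5.54 and 5.66 against 5.96, 6.14 and 5.80 (0.32, SE 0.15, limma adjusted p = 1.00). These were the 2 genes with the lowest p, and the groups overlapped for *Cdt1* alone, while *Rrm2* lay lower on all GMA-SS arrays, as did 5.31% of all genes. *Foxm1* had the lowest p of the mitosis genes at 28 d, with 5.14, 4.95, 4.72 and 4.87 against 5.21, 5.12, 5.12 and 5.03 (0.20, SE 0.10, limma adjusted p = 0.721). *Pcna* differed by 0.05 (SE 0.17) at 4 hr and -0.04 (SE 0.16) at 28 d, and *Mcm2* by -0.02 (SE 0.18) and 0.13 (SE 0.17). *Top2a* was above background on fewer than 3 aorta arrays and was not tested. On air arrays at 28 d against 4 hr 0 of the 16 genes were called (limma; 2 at an unadjusted p under 0.05, against 26% of all genes), where 5.85% of all genes were called higher and 6.55% lower. Between 28 d and 4 hr, the effect of GMA-SS differed for 0 of 32 genes in blood and 0 of 16 in aorta (limma; 1 and 0 at an unadjusted p under 0.05, against 3.59% and 3.9% of all genes), where 0% of all genes were called in either direction. Whether the effect of GMA-SS differed between tissues was not tested, since each tissue was normalized on its own.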

How the data were processed

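Lung, blood and aorta RNA was measured on 47 Illumina MouseRef-8 v2.0 arrays. Mean bead intensity per gene was exported by the authors from the scanner software without background subtraction or normalization between arrays, and those deposited intensity values were used here. The deposited detection p-value compares a gene with the negative control beads of its array. Normalized log2 values that the authors made with lumi were deposited for 11895 entries. Their exact transformation is not given in the sources used here, and they served as an alternative.

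From the intensities, background was corrected by normexp with the negative control level inferred from the detection p (offset 16), followed by log2 and quantile normalization within each tissue. Entries above background (detection p below 0.05) on 3 or more arrays of a tissue were kept, 1 entry (the brightest) per gene. Groups were compared with limma 3.58.1 in R 4.3.3 (a mean per group, all arrays of a tissue in 1 fit, empirical Bayes with an intensity trend, Benjamini-Hochberg adjustment over all genes of the tissue), after the code was tested on simulated data. This replaces the lumi normalization of the methods. The number of arrays limits the precision. Each array stands for 1 mouse, and p-values measure the spread between these arrays.

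The genes and lists were chosen with earlier results of these data known. Values per array are given for every gene called and for up to 4 S phase and 4 mitosis genes with the lowest p in a comparison, though in blood, aorta and the difference of the effects fewer are printed in full, with *Top2a*, *Pcna* and *Mcm2* always described. Of each further pathway list, up to 3 called genes with the lowest p are named, and in blood some uncalled genes with the lowest p. *Uhrf1*, *Cdc6* and other genes outside the rule were named after their values were seen. Alternatives were another background correction, scaling, filter, sample set, array weights, a replicate block, the authors' values, each array left out in turn and, added after seeing the data, the thresholds of the methods (an unadjusted p under 0.05 with a fold of at least 1.3 in lung and 1.1 in blood and aorta).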

Additional observations from a re-analysis of the deposited data

Results flagged for a closer look

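Among 167 groups of 4 arrays examined (22 list means and 145 named genes), 15 held 1 array far from the other 3, where chance alone marks about 1 group in 20. GMA-SS array 2 of lung at 4 hr accounted for 8 of them, with a mitosis mean of 1.55 and log2 signals of 9.06 for *Birc5*, 7.34 for *Cdca8*, 9.12 for *Kif22*, 9.63 for *Mcm2*, 8.57 for *Nusap1*, 9.54 for *Plk1* and 7.55 for *Rrm2*, each the highest of its group. Without that array 18 genes were called in lung at 4 hr. On lung air arrays at 4 hr *Foxm1* was lowest on array 2, at 6.50.

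In blood the S phase mean of GMA-SS array 4 at 4 hr was the highest of its group, at 0.12, and the mitosis mean of GMA-SS array 2 at 28 d the lowest, at -0.07. *Mcm3* was highest on GMA-SS array 2 at 4 hr, at 7.08, and *Tyms* on air array 1 at 4 hr, at 6.68. In aorta at 28 d the mitosis mean of GMA-SS array 2 was the highest, at 0.10, and *Rrm2* was lowest on GMA-SS array 4, at 4.62.

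*Rrm2* at 4 hr stood above the air arrays on every lung GMA-SS array and below them on every aorta GMA-SS array, where its log2 difference was -0.21. This difference between the tissues was not tested.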

How the results depend on the processing

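The 25 genes called in lung at 4 hr became 23 to 25 under the 9 other settings and 18 to 26 when each array was left out in turn. The 12 called in lung at 28 d became 4 with those 2 groups alone, 21 with array weights, 22 with the thresholds of the methods and 3 to 24 with each array left out, the extremes being GMA-SS array 1 or 3 (3) and array 4 (24). For air arrays at 28 d against 4 hr, the 2 called in lung became 1 with no background correction, 0 with the authors' values, 1 with no filter, 4 with array weights and 0 to 5 with each array left out. The 4 in blood became 2 with no filter, 7 with array weights and 1 to 6 with each array left out, and the 0 in aorta became 2 with no filter and 0 to 1 with each array left out (1 without air array 2 at 4 hr). With the thresholds of the methods, chosen after seeing the data, 1 gene passed in blood at 4 hr, 4 at 28 d and 2 in aorta at 4 hr. In lung at 4 hr the medians fell to 0.34 (S phase) and 0.59 (mitosis) with no background correction and to 0.12 and 0.33 with the authors' values, which gave 0.11 and 0.20 at 28 d; the cause was not tested. The mitosis median in aorta was 0.08 at 28 d with percentile scaling and 0.01 to 0.12 at 4 hr with each array left out. Replicate numbers did not pair the arrays (correlations from -0.327 to 0.487), and with the replicate block the counts were 25, 12, 0 and 3 in lung (4 hr, 28 d, the difference of the effects, air arrays), 0, 0, 0 and 3 in blood, and 0 throughout in aorta.

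Of 5595 further values of named genes, 5287 kept direction and call, 231 lost the call, 28 gained it and 49 changed sign, all 49 for genes called under neither setting. With arrays left out, *Mcm2* ran from -0.08 to 0.03 (lung air arrays), -0.02 to 0.13 and -0.07 to 0.07 (blood at 4 hr and 28 d), -0.12 to 0.04 (the difference of these), -0.14 to 0.05 and -0.02 to 0.25 (aorta at 4 hr and 28 d) and -0.12 to 0.14 (aorta air arrays). *Pcna* ran from -0.15 to 0.06 (difference in blood), -0.06 to 0.15 and -0.19 to 0.06 (aorta at 4 hr and 28 d) and -0.24 to 0.02 (difference in aorta). *Top2a* in blood ran from -0.01 to 0.34 at 4 hr and -0.20 to 0.05 at 28 d, *Mcm3* from -0.23 to 0.05 and *Mcm4* from -0.11 to 0.02 in blood at 4 hr, *Ccna2* from 0.02 to 0.32 in blood at 28 d and *Tyms* from -0.14 to 0.07 in aorta at 28 d. Array weights gave 0.02 for *Mcm2* on lung air arrays, 0.01 on aorta air arrays, -0.01 for *Ccna2* in blood and 0.04 for *Tyms* in aorta at 28 d. Percentile scaling gave 0.04 for *Mcm2* in aorta at 4 hr, 0.02 on aorta air arrays and 0.01 for *Pcna* in aorta at 28 d. The authors' values gave 0.00 for *Mcm2* on aorta air arrays and 0.01 for *Pcna* in the blood difference, which was 0.00 with no background correction. A detection p that did not pass the cut limits what can be said of 8 genes in lung and most in aorta.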
